A study of Mus musculus with 21 samples.

Results

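The genes described here are 10 genes of renal water handling, found by symbol among the 20634 genes measured in both count tables. They are 7 water channels (Aqp1, Aqp2, Aqp3, Aqp4, Aqp6, Aqp7 and Aqp11), the vasopressin V2 receptor gene Avpr2, the urea transporter gene Slc14a2 and Fxyd4, which encodes a regulator of the sodium pump. Kidney RNA-seq was read from 17 female apoE knockout mice on the C57BL/6J background, which started their diets at 4 weeks of age and were fed for 14 weeks. The Control mice (n = 5) ate standard chow, the Adenine mice (n = 6) ate chow with 0.2% adenine, and the Adenine + IMC mice (n = 6) ate chow with 0.2% adenine and 0.06% iodomethylcholine. Every group therefore lacked apolipoprotein E, and the 4 Control + IMC mice were not analysed here. Dietary adenine is a model of chronic kidney disease, and iodomethylcholine (IMC) blocks the gut bacterial enzyme that makes trimethylamine. The design asks how far adenine feeding changed each gene and how much of that change was absent when IMC was fed as well.

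Urine is concentrated when water leaves the collecting duct along an osmotic gradient built up in the medulla. Vasopressin binds its V2 receptor on principal cells, raises cyclic AMP, moves AQP2 to the apical membrane and raises Aqp2 transcription. Water then leaves the cell through AQP3 and AQP4 in the basolateral membrane. AQP1 carries water across the proximal tubule and the thin descending limb, and the urea transporters recycle urea in the inner medulla. Thirst and dilute urine are familiar features of tubulointerstitial kidney disease.

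The genes lie on 6 chromosomes of GRCm38, and 2 pairs are neighbours. Aqp2 (chromosome 15, 99579055 to 99584547) and Aqp6 (chromosome 15, 99601400 to 99605477) are on the plus strand with 16852 bases between them. Aqp7 (chromosome 4, 41033074 to 41048139) and Aqp3 (chromosome 4, 41092722 to 41098183) are on the minus strand, 44582 bases apart. The 250 bases before the RefSeq start of Aqp2, Aqp3 and Aqp6 are shown because Aqp2 and Aqp3 serve the same cell and fell alike, while Aqp6, the neighbour of Aqp2, fell least. Capitals mark letters that were searched for on both strands. The first search was for TGACG, the core of the cyclic AMP response element. The second was for AGATAA, the motif that GATA factors bind. The third was for TGGAAA, the core of the tonicity element. The last was for TATAAA, the TATA box.
Aqp2, chr15:99578806-99579055, plus strand: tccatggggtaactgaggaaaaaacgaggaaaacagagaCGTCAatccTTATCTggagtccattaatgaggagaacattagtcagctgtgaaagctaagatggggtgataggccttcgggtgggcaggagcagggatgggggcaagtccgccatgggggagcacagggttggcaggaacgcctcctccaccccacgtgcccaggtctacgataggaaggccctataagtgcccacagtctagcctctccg
Aqp3, chr4:41098184-41098433, minus strand: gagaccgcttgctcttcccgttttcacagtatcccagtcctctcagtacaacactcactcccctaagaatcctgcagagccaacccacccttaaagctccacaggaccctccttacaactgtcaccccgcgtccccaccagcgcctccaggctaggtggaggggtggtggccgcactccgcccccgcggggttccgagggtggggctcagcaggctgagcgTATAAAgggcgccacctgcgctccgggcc
Aqp6, chr15:99600950-99601199, plus strand: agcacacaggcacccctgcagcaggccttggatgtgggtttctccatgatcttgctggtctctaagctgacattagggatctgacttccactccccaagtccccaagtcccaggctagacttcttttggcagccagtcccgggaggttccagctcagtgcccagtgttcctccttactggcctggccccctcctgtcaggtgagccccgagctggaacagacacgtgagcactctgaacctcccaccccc

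The Aqp2 window held a cyclic AMP core starting 211 bases before the start and a GATA factor motif starting 202 bases before it, both on the opposite strand. The cyclic AMP core was in 1 of the 8 genes read and in 17.8% of the 32851 RefSeq windows of this length, and the GATA factor motif was in 2 of 8 and in 9.99%. The Aqp3 window held a TATA box starting 29 bases before the start. That box was in 2 of the 8 genes (Aqp3 and Avpr2, there on the opposite strand) and in 12.4% of all windows at any position. The tonicity core was in 1 of the 8 genes (Aqp7) and in 18.6% of all windows. The Aqp6 window held none of these letters. Such matches describe the sequence and are not evidence of binding.

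Levels are given as CPM, the read count scaled to the size of the library, after TMM scaling of all 17 libraries, whose total counts were 7716126 to 11680809 in the Control, 5444833 to 7673215 in the Adenine and 5728589 to 8305968 in the Adenine + IMC group. Of the Control mice, 302 and 403 stood apart. Slc14a2, whose product carries urea in the inner medulla, was at 73.8, 101 and 91.1 CPM in Control mice 201, 202 and 301 but at 9.35 and 9.80 CPM in mice 302 and 403. Of 8 genes for medullary osmolytes and urea, 5 were lower in both of these mice than in each of the other 3, among them the urea transporter gene Slc14a1 (2.60 and 4.31 CPM against 13.1 or more) and the aldose reductase gene Akr1b3 (4.16 and 4.31 CPM against 6.86 to 20.8). Of 8 principal cell markers, 0 were lower in both and 3 were higher in both. Among the 10 genes, 6 were lower in both: Aqp1, Aqp2, Aqp4, Aqp6, Fxyd4 and Slc14a2, the last being the gene that singled these mice out. The share of all genes lower in both was not computed, so whether such counts are unusual is not known. Whether these 2 samples held less medulla was not tested, and the Control means, losses and shares regained below include them unless stated. Several results that rest on these mice are also given without them. Of the Adenine + IMC mice, 311 differed most from the rest of its group across genes, and was lowest in proximal tubule, intercalated cell and principal cell markers. The kidney itself was plain from its markers, since the summed level of 8 proximal tubule genes was 12117 to 18332 CPM in the Control mice.

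**Figure D1:**
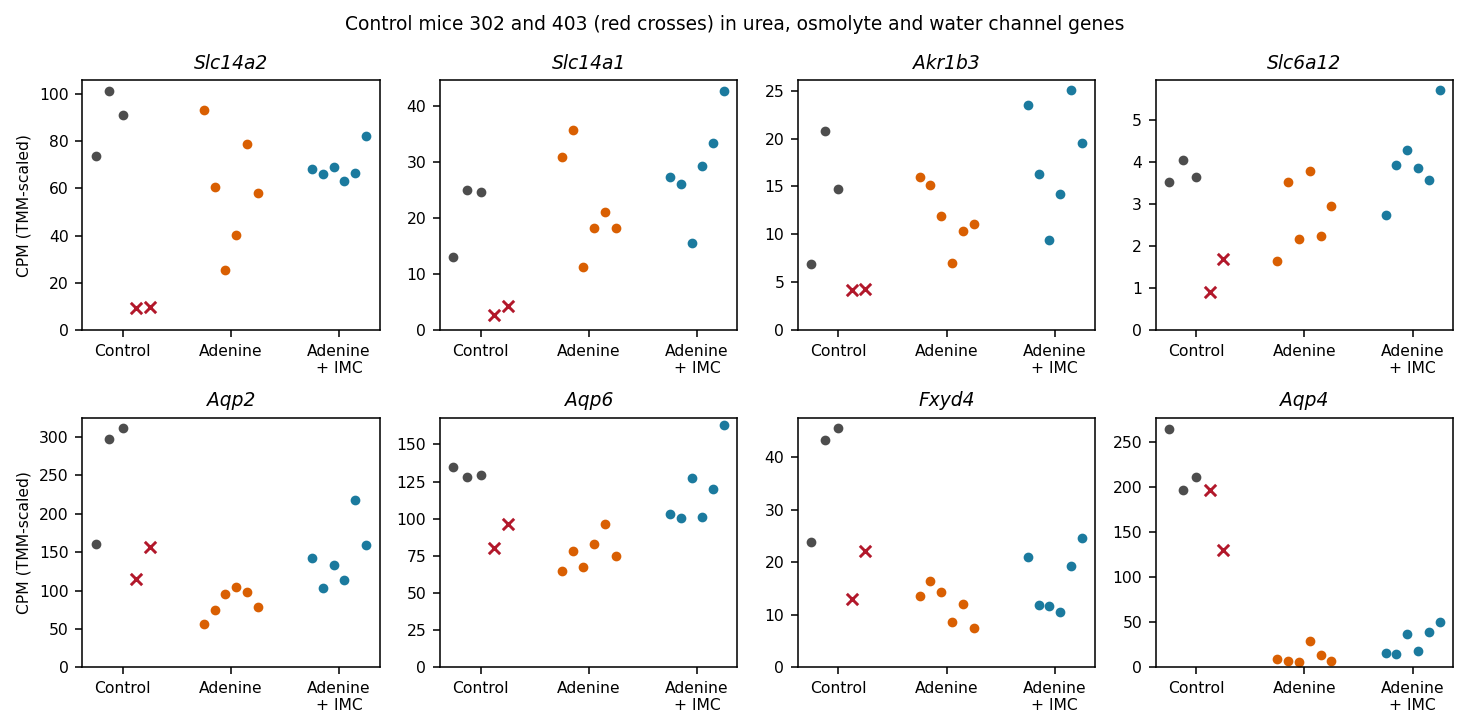
Level of 4 urea and osmolyte genes and 4 water-handling genes in each mouse (y axis, CPM, TMM-scaled) by group (x axis); red crosses are Control mice 302 and 403. Both mice lie below the other 3 Control mice in all 8 panels, and for Slc14a2 they are at 9.35 and 9.80 CPM, below every mouse fed adenine.

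Compared per length of exon, the water channels of the Control kidney differed widely in level. Aqp1 was highest at 361 ± 55.6 CPM per kilobase (SD, n = 5), followed by Aqp2 (147 ± 63.5), Aqp3 (59.3 ± 7.36), Aqp6 (47.0 ± 9.96) and Aqp4 (32.0 ± 7.65). Fxyd4 (15.1 ± 7.27), Aqp7 (11.8 ± 1.07), Slc14a2 and Aqp11 (4.31 ± 0.333) were lower, in that order, and Avpr2 was last at 0.161 ± 0.148 CPM per kilobase. The ranges over mice did not overlap between Aqp1 and Aqp2, Aqp2 and Aqp3, or Aqp11 and Avpr2, and all other neighbours in this order overlapped. In the Adenine group Aqp4 dropped from place 5 to place 8, at 1.95 ± 1.44 CPM per kilobase (SD, n = 6), and it kept that place in the Adenine + IMC group (4.66 ± 2.41).

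**Figure D2:**
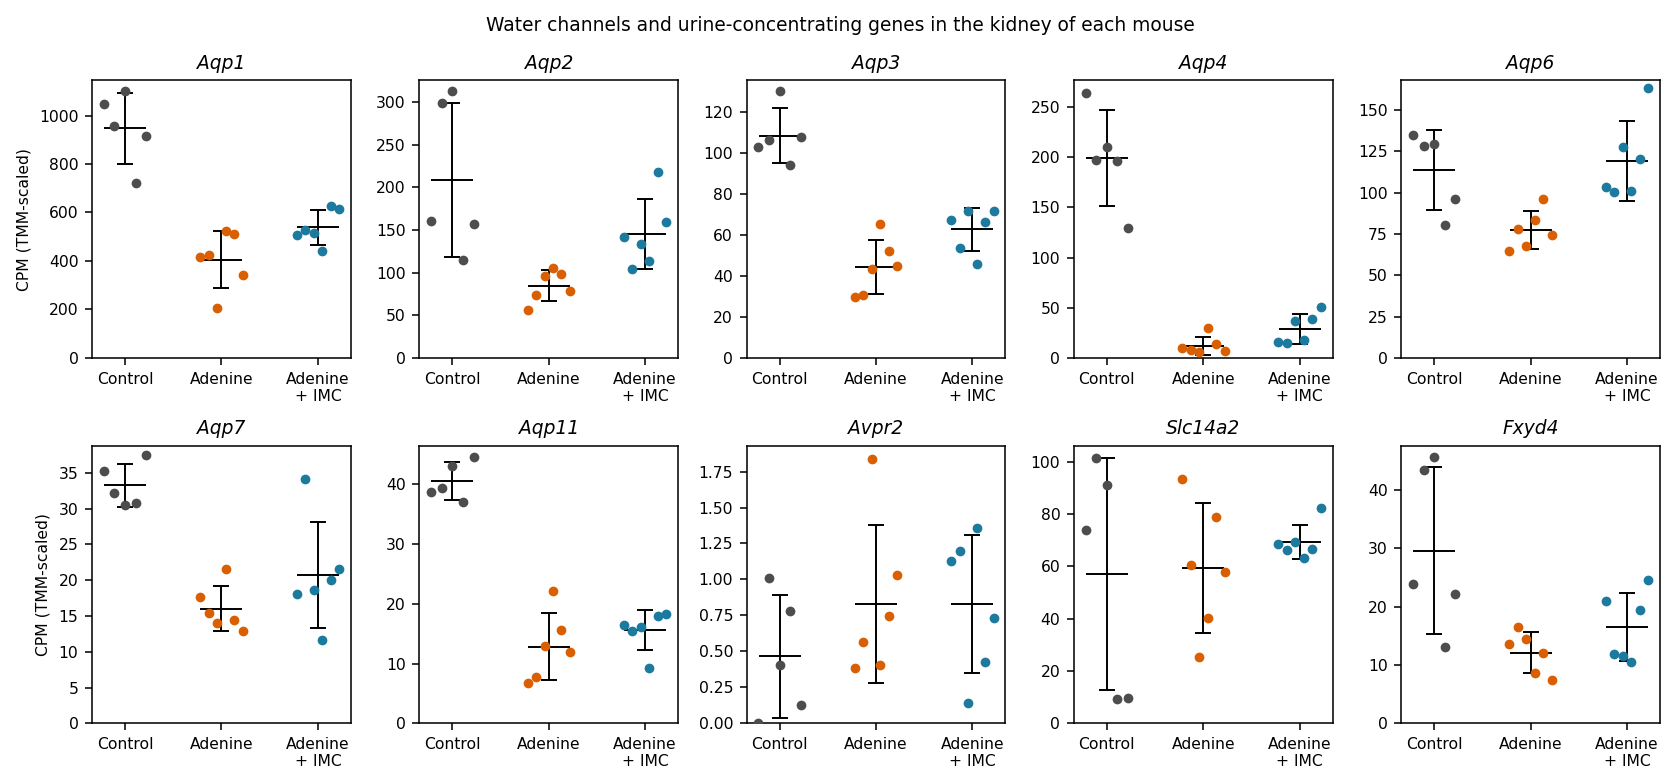
Level of each of the 10 genes in every mouse (y axis, CPM, TMM-scaled, a separate scale for each gene) in the Control, Adenine and Adenine + IMC groups; points are mice, the long bar is the mean and the error bar 1 SD. For 6 genes (Aqp1, Aqp2, Aqp3, Aqp4, Aqp7 and Aqp11) every Adenine mouse lies below every Control mouse, as for 20.6% of all genes tested, and for Aqp6 every Adenine + IMC mouse lies above every Adenine mouse.

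Adenine feeding lowered all 7 water channels and Fxyd4. Of the 9 genes tested, 8 were lower in the Adenine than in the Control group at an adjusted p below 0.1 (edgeR) and 0 were higher; of all 14612 genes tested, 32.2% were lower and 35.1% higher. Over the 9 genes the median log2 fold change was -1.26, against 0.02 over all genes. In whole kidney, fewer cells of a type and less RNA per cell cannot be told apart. All 8 calls held with mice blocked by the leading digit of their number, and in each of the 11 fits that left out a single mouse. They also held without mice 302 and 403, but both were below the other Control mice in Aqp1, Aqp2, Aqp4, Aqp6 and Fxyd4. Leaving them out raises the Control mean of these genes, so that outcome adds no support to their calls.

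Aqp4, a basolateral channel of principal cells, fell most. It was at 264, 197, 210, 196 and 130 CPM in Control mice 201, 202, 301, 302 and 403, and at 6.01 to 29.6 CPM (median 8.52) in the Adenine mice. The lowest Control mouse was above the highest Adenine mouse, which was mouse 407, and the other 5 Adenine mice were at 13.5 CPM or below. The log2 fold change was -4.01 ± 0.35 (SE, adjusted p = 7.36e-07), a 16.1-fold lower level. Without mice 302 and 403 it was -4.18.

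Aqp2, the vasopressin-regulated channel of the apical membrane, was at 161, 298, 312, 115 and 157 CPM in Control mice 201, 202, 301, 302 and 403. The Adenine mice were at 56.2 to 105 CPM (median 87.1), all below the lowest Control mouse. The fall was 2.43-fold (log2 fold change -1.28 ± 0.25, adjusted p = 0.000586), and 3.01-fold without mice 302 and 403. Aqp3, its basolateral partner, ran from 94.3 to 131 CPM in the Control mice and from 29.9 to 65.3 CPM (median 44.1) in the Adenine mice. The groups did not overlap, and the fall was 2.41-fold (-1.27 ± 0.18, adjusted p = 3.87e-05). Fxyd4, which is expressed in the collecting duct, was at 23.9, 43.3, 45.6, 13.0 and 22.1 CPM in Control mice 201, 202, 301, 302 and 403 and at 7.48 to 16.5 CPM (median 12.9) in the Adenine mice. Here mouse 302 lay within the Adenine range. The fold change of Fxyd4 was -1.26 ± 0.30 on the log2 scale (adjusted p = 0.00262), and -1.61 without mice 302 and 403.

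Outside the principal cell, Aqp1 was at 1048, 955, 1101, 722 and 915 CPM in Control mice 201, 202, 301, 302 and 403 and at 205 to 524 CPM (median 422) in the Adenine mice. It fell 2.31-fold (-1.21 ± 0.20, adjusted p = 0.000184). Aqp11, an intracellular channel of the proximal tubule, was at 37.0 to 44.6 CPM in the Control mice and at 6.74 to 22.2 CPM (median 12.4) in the Adenine mice, a 3.12-fold fall (-1.64 ± 0.23, adjusted p = 4.21e-05). Aqp7, which carries water and glycerol in the proximal straight tubule and in fat cells, went from 30.5 to 37.5 CPM in the Control mice to 12.9 to 21.5 CPM in the Adenine mice, a 2.04-fold fall (-1.03 ± 0.12, adjusted p = 9.36e-06). For all 3 the groups did not overlap. Aqp6, a channel of intracellular vesicles in intercalated cells, fell least. It was at 135, 128, 130, 80.4 and 96.2 CPM in Control mice 201, 202, 301, 302 and 403, and at 64.9 to 96.2 CPM (median 76.4) in the Adenine mice, so that mice 302 and 403 lay within the Adenine range. The fall of Aqp6 was 1.45-fold (-0.53 ± 0.14, adjusted p = 0.00490) with all Control mice and 1.67-fold without these 2.

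Slc14a2 did not pass the test. It was at 25.2 to 93.4 CPM (median 59.3) in the Adenine mice, within the wide span of the Control mice, and the log2 fold change was 0.09 ± 0.54 (adjusted p = 0.904). Without mice 302 and 403 the Control mean was 88.7 ± 13.9 CPM (SD, n = 3) and the estimate turned to -0.56, which is given with no test because these 2 mice were singled out for their low Slc14a2. Avpr2 had 0 to 7 counts in the Control, 3 to 11 in the Adenine and 1 to 12 in the Adenine + IMC mice, too few to pass the filter on low counts. The library with 0 counts allowed a level of up to 0.303 CPM (3 counts, counting error only). Of the 2886 exonic bases of Avpr2, 2347 are shared with Arhgap4 on the opposite strand, and use of strand in counting is not stated, so reads of the pair cannot be told apart. A change in the receptor gene was not detectable at these counts. Whether depth or the exons shared with Arhgap4 kept the counts low was not tested.

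**Figure D3:**
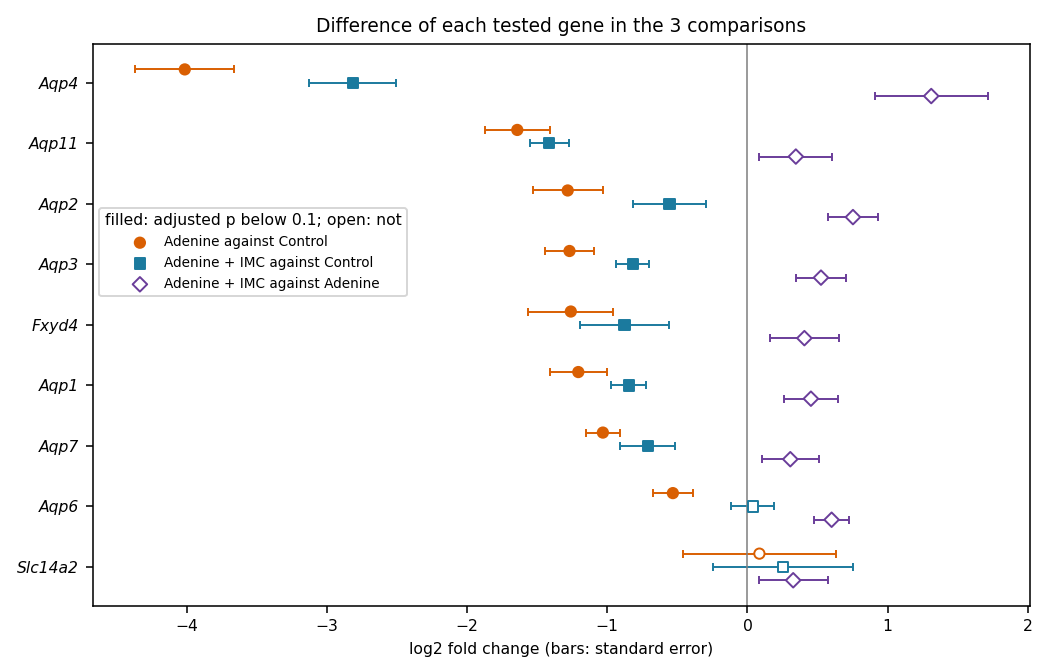
Log2 fold change of the 9 tested genes (y axis) in the Adenine against Control, Adenine + IMC against Control and Adenine + IMC against Adenine comparisons (x axis); bars are standard errors, filled symbols passed an adjusted p below 0.1 and open symbols did not. The 8 genes lower with adenine lie between -4.01 and -0.53, and all 9 estimates of Adenine + IMC against Adenine lie above 0 but are open. The comparisons share groups of mice, so they are not independent of each other.

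With IMC added to adenine, most of these genes were still below the Control level. In the Adenine + IMC group 7 of 9 were lower than in the Control group, where 32.3% of all 14578 genes were lower. The log2 fold change was -2.82 ± 0.31 for Aqp4 (adjusted p = 8.87e-06), -1.41 ± 0.14 for Aqp11 (3.58e-06) and -0.85 ± 0.12 for Aqp1 (8.84e-05). It was -0.88 ± 0.32 for Fxyd4 (0.0307), -0.82 ± 0.12 for Aqp3 (7.64e-05) and -0.71 ± 0.20 for Aqp7 (0.00750). The estimate for Aqp2 was -0.56 ± 0.26 (adjusted p = 0.0826), and its call was lost in 7 of the 11 fits that left out 1 mouse, with adjusted p of 0.122 to 0.239 and log2 values of -0.55 to -0.37, and under upper-quartile scaling (-0.49, adjusted p = 0.138). These 7 left out Control mouse 202 or 301 or Adenine + IMC mouse 211, 212, 310, 311 or 412. Without mice 302 and 403 Aqp2 was at -0.87. Aqp6 was at 0.04 ± 0.15 (adjusted p = 0.853), with an interval of -0.27 to 0.34 on the log2 scale, and at -0.17 without mice 302 and 403. Slc14a2 was at 0.25 ± 0.50 (adjusted p = 0.691) with all mice, and its estimate turned to -0.39 once the 2 Control mice lowest in it were left out, again with no test.

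Set directly against the Adenine mice, the Adenine + IMC mice had higher mean levels of all 9 tested genes, but 0 passed the adjusted threshold (limma, adjusted p of 0.601 to 0.816). Of all 14696 genes tested, 0% were called higher by limma and 988 had an unadjusted p below 0.05, as did 5 of the 9 genes. On the recovered reads edgeR also called 0 genes in all, and DESeq2 called 16 lower and 21 higher, among them Aqp2 and Aqp6. Mouse numbers start with 2, 3 or 4, a digit whose meaning the labels do not state, and this digit was then used as a block. In that fit limma called 0.497% of all genes higher, and 3 of these were Aqp6, Aqp2 and Aqp4. Leaving out 1 mouse at a time, 7 of the 12 blocked fits called 0 of the genes, and these 7 called 0% to 0.0204% of all genes higher. The other 5 called 1 to 5 of the genes and 0.0544% to 2.47% of all genes. In the blocked fits that did not call them, the log2 difference was 0.56 to 0.70 for Aqp6, 0.73 to 0.94 for Aqp2 and 1.24 to 1.58 for Aqp4. The median log2 difference of the 9 genes was 0.45 without the block, against 0.01 over all genes. In the same comparison cell marker lists had 0 calls, and their median log2 difference was 0.46 for the thick ascending limb, 0.36 for the proximal tubule, 0.36 for endothelium, 0.20 for principal cells, 0.23 for intercalated cells and -0.997 for tubule injury. It was 1.05 for the 5 adipocyte markers tested, -0.24 for macrophages, -0.02 for fibroblasts and -0.04 for T cells. With the digit as a block, 2 of 5 tubule injury markers were lower and 1 of 8 intercalated cell markers was higher. The part of these cells in the levels of the 9 genes was not tested.

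Of the 10 genes, 1 had adenine-fed groups that did not overlap. This was Aqp6, and of all genes tested 0.129% had every Adenine + IMC mouse above every Adenine mouse. Aqp6 was at 101 to 163 CPM (median 112) in the Adenine + IMC mice, all above the highest Adenine mouse at 96.2 CPM. The difference was 0.60 ± 0.12 on the log2 scale without the block (limma, adjusted p = 0.601) and 0.64 ± 0.10 with it (adjusted p = 0.0599). Within first digits 2, 3 and 4 the difference was 0.51, 0.73 and 0.71.

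Aqp2 was at 104 to 218 CPM (median 138) in the Adenine + IMC mice, and 5 of these 6 mice were above every Adenine mouse. The log2 difference was 0.75 ± 0.18 (limma, adjusted p = 0.601; exact permutation p = 0.00433, from all 924 splits, two-sided and not adjusted for the other genes) and with the block 0.80 ± 0.14 (adjusted p = 0.0602). It was 0.90, 0.35 and 0.97 within digits 2, 3 and 4. Aqp4 was at 14.7 to 50.6 CPM (median 27.3), with 3 of 6 mice above every Adenine mouse, and mouse 407 of the Adenine group lay above the other 3. Its log2 difference was 1.31 ± 0.40 (limma, adjusted p = 0.711; exact permutation p = 0.0195) and with the block 1.45 ± 0.33 (adjusted p = 0.0937). Within digits 2, 3 and 4 the difference of Aqp4 was 0.83, 2.05 and 1.64.

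The Adenine + IMC and Adenine groups also overlapped for Aqp1 and Aqp3. Aqp1 was at 439 to 627 CPM (median 521) in the Adenine + IMC mice, 3 of them above every Adenine mouse, and differed by 0.45 ± 0.19 (limma, adjusted p = 0.715; exact permutation p = 0.0195). Without Adenine mouse 308 the log2 difference of Aqp1 was 0.27. The difference of Aqp1 was 0.29, 1.20 and 0.43 within digits 2, 3 and 4, and digit 3 holds 1 Adenine mouse, number 308, the lowest of all at 205 CPM. Aqp3 was at 46.0 to 71.8 CPM (median 66.9), 4 of 6 mice above every Adenine mouse, and differed by 0.52 ± 0.18 (adjusted p = 0.711; exact permutation p = 0.0260). With the block the adjusted p was 0.136 for Aqp1 and 0.129 for Aqp3 by limma. For Aqp1 it was 0.162 by edgeR and 0.0209 by DESeq2 with the same block, so its call depends on the tool. The exact permutation p was 0.175 for Fxyd4, 0.208 for Aqp7, 0.258 for Aqp11 and 0.314 for Slc14a2, whose log2 differences were 0.41, 0.31, 0.35 and 0.33. Single mice moved 3 of these: Aqp7 was at 0.15 without mouse 212, Slc14a2 at 0.11 without 308, and Aqp11 at 0.18, 0.23 and 0.52 without 207, 208 and 407. Within single digits 3 of these genes were lower in the Adenine + IMC mice: Fxyd4 (-0.39) and Aqp11 (-0.09) in digit 3 and Slc14a2 (-0.17) in digit 2.

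The share of the adenine loss that was regained was computed for the 8 genes lower with adenine, as the rise from the Adenine to the Adenine + IMC mean divided by the drop from the Control to the Adenine mean. The median share was 26.2%, and the genes spread from 9.04% to 115%. Aqp4 lost 93.9% of its Control level and regained 9.04% ± 3.87 (SE) of the loss, which left it at 14.6% of the Control mean. Aqp11 lost 68.3% and regained 9.89% ± 8.93, which was 5.73%, 6.43% and 15.6% without mice 207, 208 and 407. Aqp1 lost 57.3% and regained 24.6% ± 9.07, Fxyd4 lost 59.1% and regained 25.1% ± 17.6, and Aqp3 lost 59.1% and regained 28.8% ± 9.45. Without Adenine + IMC mouse 412 the share of Fxyd4 was 15.8%. Aqp7 lost 51.8% and regained 27.2% ± 18.5. Aqp2 lost 59.5% and regained 48.7% ± 21.0, and stood at 69.5% of the Control mean. Aqp6 lost 31.9% and regained 115% ± 43.7.

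These shares are less certain than the fold changes, since each is a ratio of 2 differences and without the block the rise itself passed an adjusted test only for Aqp2 and Aqp6, and only by DESeq2 (adjusted p = 0.0475 and 0.0237). For Aqp2 the share was 35.0% without mice 302 and 403 and 36.9% without Adenine + IMC mouse 410. For Aqp6 it was 78.4% without mice 302 and 403. On a log2 scale the share of Aqp11 was 20.4% and that of Aqp4 31.4%, since a gene that fell 16.1-fold and then rose 2.48-fold regained little in level but more in ratio. Scaling by library total in place of TMM raised the median gene of the Adenine group by 0.32 (log2) relative to the Control group. Under that scaling each of the 8 genes still had a lower Adenine than Control mean, but Aqp6 lost 15.7% and its share regained was 256%. The share of Aqp2 was then 64.4%.

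**Figure D4:**
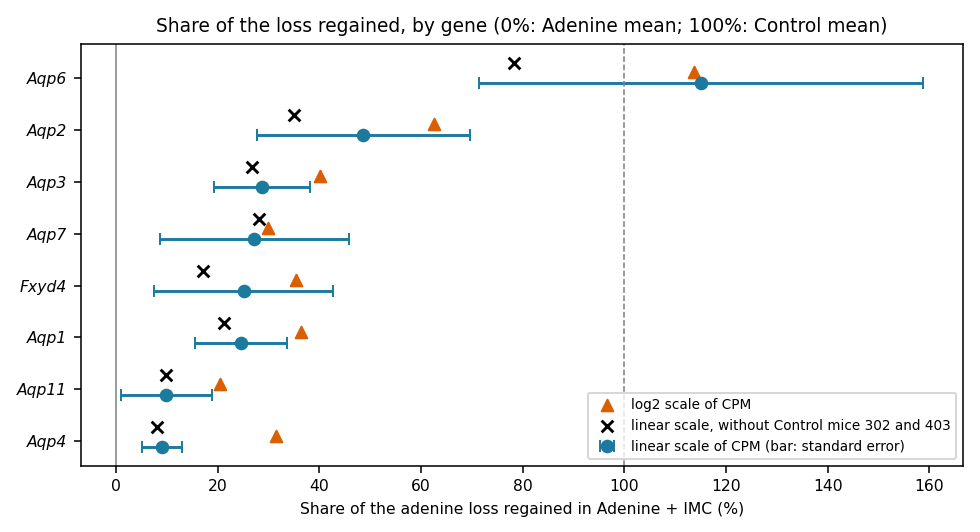
Share of the adenine loss regained in the Adenine + IMC group (x axis, percent; 0% is the Adenine mean and the dashed line at 100% the Control mean) for the 8 genes lower with adenine; circles are the linear scale with standard errors, triangles the log2 scale and crosses the linear scale without Control mice 302 and 403. Aqp4 and Aqp11 are lowest at 9.04% and 9.89%, and Aqp6 is highest at 115%, with an error bar that spans 100%.

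Mouse 212 decided the share of Aqp7. It was at 34.2 CPM, and the other 5 Adenine + IMC mice were at 11.7 to 21.5 CPM. Without it the share was 11.5%. The same mouse had the highest summed level of adipocyte markers, at 588 CPM over the 5 of 6 markers measured, against 0.4 to 180 CPM in its group, 0.5 to 150 CPM in the Adenine and 0.5 to 13.4 CPM in the Control group. Adipoq, which encodes adiponectin, was at 68.4 CPM in mouse 212. The mice next highest in adipocyte markers were 211 of the Adenine + IMC group (180 CPM) and 207 of the Adenine group (150 CPM). Their Aqp7 was at 18.1 and 17.7 CPM, within the range of the other mice of their groups. The part of fat in the Aqp7 values was not tested.

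The remaining water channel genes were near the limit of detection. Aqp5 had 1 to 14 counts and Aqp8 0 to 14 in any mouse, and Aqp9, a glycerol channel of liver and leukocytes, had 0 to 2 counts in the Control, 7 to 21 in the Adenine and 6 to 20 in the Adenine + IMC mice. Every adenine-fed mouse had more Aqp9 counts than every Control mouse, and the share of all genes split in this way was not computed. Of the 5 genes listed, Aqp9 alone passed the filter on low counts, and did so through the adenine-fed groups, so no fold change or test is given for it.

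Upstream of the water channels, 20 vasopressin signalling genes were listed. In the Adenine group 7 of them were lower and 3 higher than in the Control group, where 32.2% of all genes were lower and 35.1% higher, and the median log2 fold change was -0.09. The 3 genes with the smallest adjusted p were Elf3 (1.75), a transcription factor of epithelia, the adenylyl cyclase gene Adcy3 (1.14) and the cyclic AMP phosphodiesterase gene Pde4d (-0.84). Of 14 genes of water channel trafficking and its brakes, 7 were lower and 4 higher (median -0.07). Here the smallest adjusted p belonged to the prostaglandin receptor gene Ptger4 (1.76), the endothelin gene Edn1 (2.37), whose product opposes vasopressin in the collecting duct, and the motor gene Myo5b (-1.11). Against the Adenine group, the Adenine + IMC group had 0 calls in either list (limma). With the digit as a block, 1 gene of the second list was higher, the endothelin receptor gene Ednrb (log2 difference 0.75, adjusted p = 0.0602).

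Of 12 salt transport genes of the concentrating segments, 9 were lower and 1 higher with adenine, against 32.2% and 35.1% of all genes, with a median of -0.69. The 2 with the smallest adjusted p were the tight junction gene Cldn10 (-0.93) and the sodium pump gene Atp1b1 (-0.83). Of the 8 genes for medullary osmolytes and urea, 3 were lower and 1 higher, for the lower genes a share near that of all genes, and the median was 0.12. It turned to -0.29 without mice 302 and 403. The smallest adjusted p in that list belonged to Slc38a2 (0.59), Hspa4l (-0.63) and the inositol transporter gene Slc5a3 (-1.21).

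Markers of tubule cells also fell. With adenine, 8 of 8 proximal tubule markers were lower (median log2 fold change -2.22), as were 7 of 8 intercalated cell markers (-1.22), 7 of 8 principal cell markers (-0.54) and 4 of 6 thick ascending limb markers (-0.88), of which 1 was higher. Of all genes tested in this comparison 32.2% were lower and 35.1% higher. Without mice 302 and 403, 5 of 8 principal cell markers and 6 of 8 intercalated cell markers were lower. All 6 fibroblast, 6 macrophage and 6 T cell markers and all 5 tubule injury markers were higher. The summed principal cell markers ran from 1542 to 1911 CPM in the Control, 985 to 1540 CPM in the Adenine and 940.5 to 1842 CPM in the Adenine + IMC group, and the summed proximal tubule markers from 1861 to 7270 CPM in the Adenine and 3003 to 5982 CPM in the Adenine + IMC group. The part of these changes in cell markers in the levels of the water channels was not tested. Of 6 endothelial markers, 4 were lower with adenine, and 1 was lower and 1 higher in the Adenine + IMC than in the Control group. In the latter comparison 32.3% of all genes were lower and 30.9% higher, so neither endothelial count exceeded the share of all genes. Without mice 302 and 403, in which 4 of these 6 markers were lower than in the other Control mice, the Adenine + IMC counts were 2 lower and 0 higher.

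Over the 12 adenine-fed mice, the 5 genes whose log2 level had the highest Pearson r with that of Aqp2 were Tmem9b (Pearson r = 0.914, Spearman rho = 0.881), Dele1 (0.902, 0.853), Vegfa (0.893, 0.902), Kcna1 (0.887, 0.839) and Alas2 (0.886, 0.874). For Aqp1 they were Lzts3 (0.961, 0.832), Hk1 (0.936, 0.748), Srgap3 (0.927, 0.818), Trp53bp2 (0.918, 0.881) and Irx1 (0.917, 0.622). Aqp3 had r = 0.847 with Aqp2, and Slc14a2 had r = 0.0180. Aqp6 had r = 0.818 with Aqp2 but rho = 0.916, above the rho of the 5 genes named for Aqp2. These values describe 12 mice of 2 diets that share the same table and scaling, and no test was made of them.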

How the data were processed

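Kidney RNA-seq of 17 mice was analysed, each mouse being 1 replicate. The genes and gene lists were chosen with earlier results of these data known. The authors deposited raw counts per gene for the Control and Adenine mice. A second table, of both adenine-fed groups, holds what is here called a signal: the authors divided each count by the size factor that DESeq2 gives. The methods name STAR and mm10, whereas the submitters' processing notes name Trimmomatic 0.39, Bowtie2 2.2.5 and HTSeq 0.9.1; use of strand is not given in the sources used here. A deposited table of the authors' own comparison (fold changes and p-values) was used for gene names only. Dividing the normalized values by the value of 1 read gave whole reads for 100% of values (tolerance 0.01), and 0 differed from the raw counts of the Adenine mice. No pair of libraries in a group agreed within counting noise.

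The Control group was compared with each adenine-fed group by edgeR 4.0.16 (quasi-likelihood, TMM, filterByExpr), using recovered reads for Adenine + IMC. Between the adenine-fed groups, limma-trend (limma 3.58.1) was run on normalized counts after adding 1 and taking log2, for genes with a mean of at least 10, so differences of low genes are understated. A gene was called when its p-value, adjusted by Benjamini and Hochberg over all genes tested, was below 0.1. DESeq2 1.42.0, in R 4.3.3, was an alternative. Standard errors of shares came from the delta method. The main edgeR and limma fits, limma with the digit block, and DESeq2 between the adenine-fed groups were first run on simulated data. The simulation held no digit effect. Other tests were not run on it, among them the permutation test, the test for outlying mice, and edgeR and DESeq2 with the block. Alternatives changed scaling, tool, filter, threshold, pseudocount, block and mice; leaving out Control mice 302 and 403, leaving out mice under the block, and a block on a number in the mouse code, were added after the data were examined. Gene lengths and positions are from GENCODE M21 (GRCm38) and promoter windows from RefSeq (GRCm38.p6), matched by symbol for the 8 genes read. Of the other lists, up to 3 genes were named, ranked by adjusted p-value between Adenine and Control, and 1 such gene is not reported here; further genes were named after their values were seen.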

Additional observations from a re-analysis of the deposited data

Results flagged for a closer look

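Of 30 sets of values (10 genes in 3 groups), 3 held a mouse that stood far from the rest of its group by Dixon's test. Chance flags about 1 in 20 such sets. In the Adenine group, mouse 407 had 29.6 CPM of Aqp4, where the other 5 mice had 6.01 to 13.5 CPM. The same mouse had the highest summed proximal tubule markers of its group (7270 CPM, against 1861 to 4289 CPM) and the lowest tubule injury (415 CPM, against 716 to 1328 CPM) and macrophage markers (1232 CPM). Without mouse 407 the mean of the Adenine group was 8.65 CPM (n = 5). In the Adenine + IMC group, mouse 311 had 9.30 CPM of Aqp11, where the others had 15.4 to 18.3 CPM. Mouse 311 stood apart as a whole library, since the chi-square per degree of freedom, over genes not too low in counts, was 44.3 to 75.4 in its pairs with the other 5 mice and 9.72 to 33.8 among those 5. It was lowest of its group in summed proximal tubule (3003 CPM), intercalated cell (251 CPM) and principal cell markers (940.5 CPM) and highest in T cell markers (253 CPM). The part of these differences in the Aqp4 and Aqp11 values of mice 407 and 311 was not tested. Mouse 412 of the same group had 82.2 CPM of Slc14a2, where the others had 63.3 to 69.1 CPM.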

How the results depend on the processing

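The counts of genes lower than in the Control group (8 with adenine, 7 with adenine and IMC) stayed within 1.5 times under every alternative run, as did the median share regained within 1 SD of the mice. The number of genes higher in Adenine + IMC than in Adenine was 0 without the block, apart from 2 by DESeq2 on the recovered reads. With the first digit as a block it was 3 by limma (0.497% of all genes were higher), 2 by edgeR (0.348%) and 5 by DESeq2 (1.58%). By limma it was 0 to 5 when 1 mouse was left out, with 0% to 2.47% of all genes higher (5 without mouse 407, 4 without 311, 3 without 310, 2 without 410 and 1 without 408). The estimate of Slc14a2 turned to -0.56 (Adenine against Control) and -0.39 (Adenine + IMC against Control) without mice 302 and 403, and that of Aqp6 against Control to -0.17. With 1 mouse left out, Slc14a2 ran from -0.19 to 0.39 and from -0.026 to 0.55, and Aqp6 from -0.068 to 0.10. The cause was not tested. Avpr2, at 0 to 12 counts, was too low to test, by depth or by the exons shared with Arhgap4, which was not tested. The labels also hold a second code whose last digits recur between groups, giving 4 pairs of mice in each comparison. With this number as a replicate block, added after the data were examined, the counts were 8, 7 and 0. Deviations from the group means correlated above 0.1 in 2 of 4 pairs of Adenine and Adenine + IMC mice (r of -0.12 to 0.508). What the number stands for is not stated, and whether such pairs share a cage or litter was not tested.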
